A study of Danio rerio with 5 samples.

Results

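The ligands and receptors of the RANK and Csf1 pathways were followed through RNA sequencing of zebrafish caudal fin tissue. The set was chosen by gene name. This choice, and that of the gene lists described below, was made with earlier results of these data known. The set holds 8 of the 31540 genes in the tables. They are tnfsf11, tnfrsf11a and tnfrsf11b of the RANK pathway, and csf1a, csf1b, il34, csf1ra and csf1rb of the Csf1 pathway. All 8 passed the filter on low counts that left 19034 genes for testing. The labels assign 3 libraries to 24h and 2 to Control, and they describe both as regenerated caudal fin tissue of Danio rerio. They give no strain, genotype, age, number of pooled fins or further treatment, and what Control stands for is not spelled out. The series as a whole concerns fins 1 and 3 days after amputation, so each result is read only as 24h against Control. Words such as fell and rose mean lower and higher in 24h than in Control, and no order in time is implied. Separate animals are not stated, so a p-value here reflects only how far these samples spread, and that spread may be technical. Gene reads per library numbered 14958600 to 22341452 in 24h and 15448344 to 18887167 in Control.

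RANKL, the product of tnfsf11, is the Tnf-family ligand that drives precursors of the monocyte lineage to become bone-resorbing osteoclasts. It acts through its receptor RANK (tnfrsf11a), and osteoprotegerin (tnfrsf11b) is a secreted decoy that binds the ligand and keeps it from the receptor. Csf1 and Il34 are ligands of the receptor tyrosine kinase Csf1r, on which macrophages and osteoclasts depend for survival and growth. Zebrafish carry duplicates of both the Csf1 and the receptor gene, and csf1ra is also known for its role in xanthophores, the yellow pigment cells of the skin and fins.

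Of the 8 genes, 5 fell and 1 rose in the 24h libraries. The RANK ligand tnfsf11, its receptor tnfrsf11a, the ligand csf1b and both Csf1 receptors fell, and the decoy tnfrsf11b rose. For the receptor csf1rb this rests mostly on intron reads, which were 91.6% of its reads in 24h and 94.6% in Control. The ligands csf1a and il34 did not pass the test in either direction. In edgeR's quasi-likelihood test on total reads with Benjamini-Hochberg adjustment at 0.05, 24.3% of all tested genes were called, 14.8% as lower and 9.43% as higher in 24h. Over the 8 genes the median change was -0.92 on the log2 scale, beside -0.0043 over all genes tested. In 6 of the 8 genes all 24h libraries lay on one side of both Control libraries, as in 56.8% of all tested genes.

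**Figure D1:**
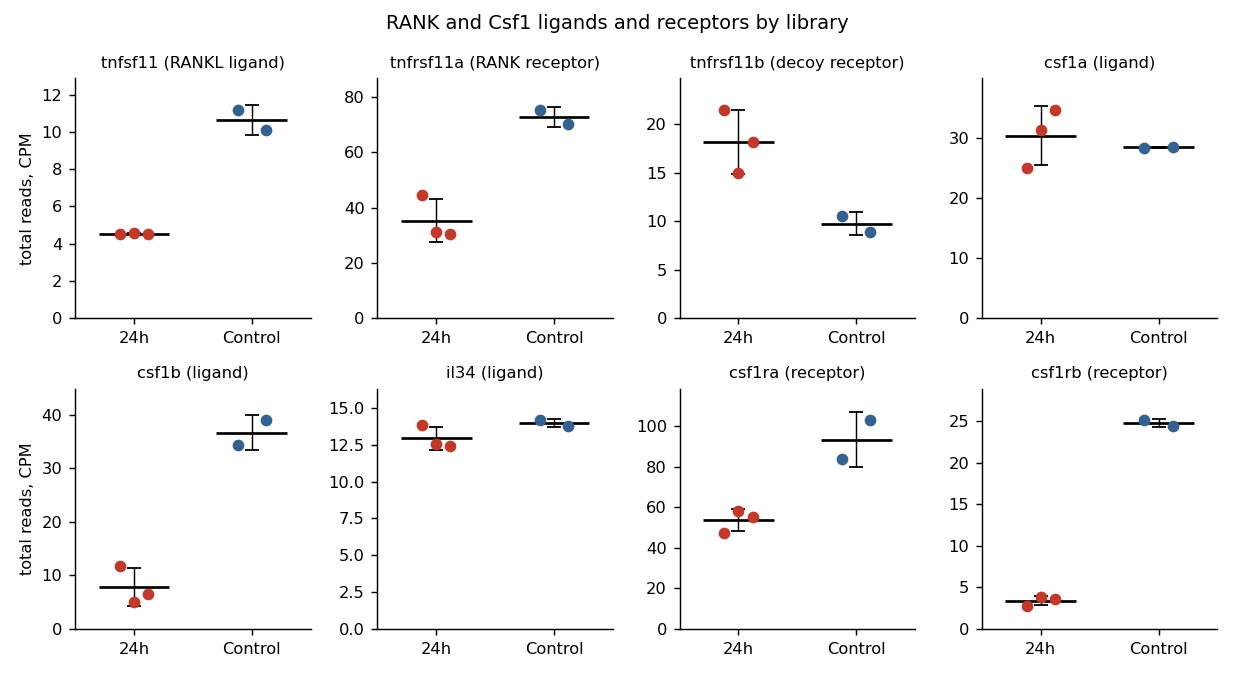
Total reads of the 8 genes in each library, in CPM (a level per library size after TMM scaling), with 24h on the left and Control on the right of each panel. Points are libraries, thick bars are means and whiskers are SD (n = 3 for 24h, n = 2 for Control); the groups overlap in csf1a and il34 and in none of the other genes.

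The ligand tnfsf11 (ENSDARG00000068141) lies on chromosome 9 at 18015576-18035586 on the plus strand of GRCz10 and has 4 exons. It had 92, 108 and 70 reads in 24h and 212 and 153 in Control. As CPM, a level per library size after TMM scaling, this was 4.50, 4.57 and 4.54 in 24h, against 11.2 and 10.1 in Control. The groups stood well apart. The 24h values lay closer together than the Control values, but they rest on 70 to 108 reads in a library. Their closeness is not read as a property of the gene. The mean was 4.54 ± 0.0368 CPM in 24h (SD, n = 3) and 10.6 ± 0.779 CPM in Control (SD, n = 2). This is a log2 fold change of -1.23 ± 0.19 (approximate SE; edgeR's test, adjusted p = 0.0035). Counted on exon-exon reads only, of which it had 21, 33 and 14 in 24h and 44 and 32 in Control, the change was -0.95 with an adjusted p of 0.063 in edgeR's test. In bulk tissue, fewer cells that express a gene and less RNA in each of them cannot be told apart, and this holds for every gene described here.

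The receptor tnfrsf11a (ENSDARG00000087804) lies on chromosome 24 at 18341447-18366212 on the minus strand and has 10 exons. Its levels were 44.5, 31.0 and 30.6 CPM in 24h and 75.5 and 70.2 CPM in Control. Replicate 1 of 24h was the highest of its group and still below both Control libraries. The mean was 35.4 ± 7.89 CPM in 24h and 72.8 ± 3.72 CPM in Control, a log2 fold change of -1.04 ± 0.18 with an adjusted p of 0.0069 in edgeR's test. Without Control replicate 1 the change was -0.99 and the adjusted p 0.054. The gene model si:dkey-73n8.3 lies on the same strand, 375 bp beyond the end of the gene. It had 6, 10 and 10 reads in 24h and 387 and 312 in Control, a log2 fold change of -5.51 ± 0.28 with an adjusted p of 3.3e-05 in edgeR's test. Whether its reads come from an extended tnfrsf11a transcript was not tested.

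The decoy receptor tnfrsf11b (ENSDARG00000098377) lies on chromosome 19 at 142180-146056 on the plus strand and has 3 exons. It had 439, 352 and 280 reads in 24h and 200 and 135 in Control. The levels were 21.5, 14.9 and 18.2 CPM in 24h, against 10.6 and 8.90 CPM in Control. Every 24h library was above both Control libraries, and it was the only one of the 8 genes called higher. Its mean was 18.2 ± 3.28 CPM in 24h and 9.73 ± 1.17 CPM in Control, a log2 fold change of 0.90 ± 0.21 with an adjusted p of 0.020 in edgeR's test. The call was lost without either Control library: the adjusted p was 0.082 without Control replicate 1 (log2 fold change 1.03) and 0.13 without Control replicate 2 (0.80).

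The position of tnfrsf11b bears on how it can be counted. It lies wholly inside gpd1c, a gene on the opposite strand at 24933-325377, and overlaps scn1bb on its own strand. For gpd1c the levels were 372, 320 and 291 CPM in 24h and 248 and 250 CPM in Control, with a log2 fold change of 0.40 ± 0.14 and an adjusted p of 0.086 in edgeR's test. Of the reads of tnfrsf11b, 72.9% were unique in 24h and 75.5% in Control, the lowest unique share of the 8 genes. The library kit marks strand, but whether counting used strand is not given in the sources used here. How many reads in this interval come from gpd1c was not tested. Intron reads of tnfrsf11b numbered 5, 3 and 2 in 24h and 2 and 2 in Control. Those of gpd1c, over its whole length, numbered 4970, 4881 and 3269 in 24h and 3528 and 2805 in Control. On other kinds of reads the change of tnfrsf11b was of like size. It was 0.85 ± 0.20 on unique reads and 0.91 ± 0.22 on exon-exon reads, with adjusted p of 0.017 and 0.018 in edgeR's test. Both kinds are part of the same total reads, so a like size is partly built in. The exon-exon reads numbered 237, 216 and 156 in 24h and 120 and 73 in Control.

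Ratios within a library need no scaling for depth, and they were taken as exon reads per kilobase of exon of one gene over the same of another. The ratio of RANK ligand to receptor overlapped between the groups: tnfsf11 over tnfrsf11a was 0.217, 0.286 and 0.297 in 24h and 0.282 and 0.280 in Control. The log2 difference was -0.089, less than the SD of 0.25 among the 24h libraries (exact two-sided permutation test, p = 1). The sign of this difference turned to 0.053 without 24h replicate 1.

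Relative to the decoy, ligand and receptor were both lower in 24h. The ratio of tnfsf11 to tnfrsf11b was 0.275, 0.355 and 0.295 in 24h, against 1.2 and 1.36 in Control. That is a log2 difference of -2.06, or 4.17-fold lower, with SDs of 0.19 in 24h and 0.13 in Control. For tnfrsf11a over tnfrsf11b the ratio was 1.27, 1.24 and 0.992 in 24h and 4.26 and 4.85 in Control, a log2 difference of -1.97. Thus exon reads per kilobase of the decoy exceeded those of the ligand in each 24h library and fell short of them in each Control library. With 3 libraries against 2 the exact two-sided permutation test cannot give a p below 0.2, and this was the p of both ratios (0.27 adjusted over the 12 ratios computed).

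**Figure D2:**
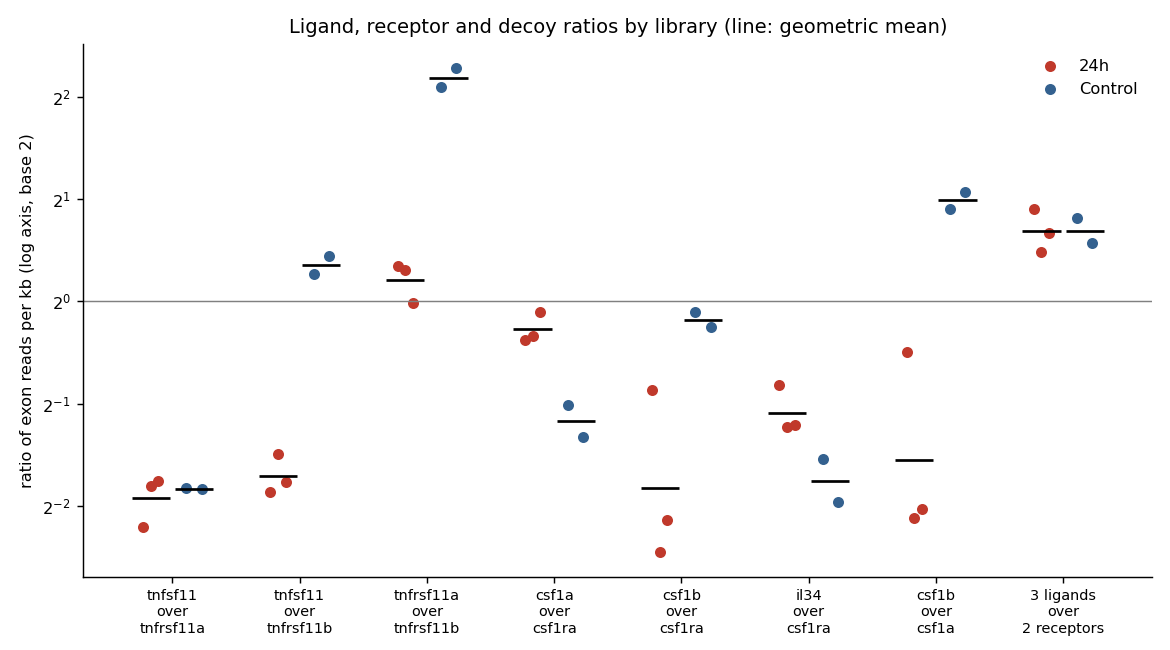
Ratios of exon reads per kilobase between ligands, receptors and the decoy in each library, on a log axis of base 2, with 24h left of Control. Points are libraries and bars geometric means (n = 3 for 24h, n = 2 for Control); ligand over decoy is 0.275 to 0.355 in 24h and 1.2 to 1.36 in Control, while ligand over RANK overlaps between the groups.

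The Csf1 ligand genes gave different results. The ligand csf1b (ENSDARG00000068263, chromosome 8 at 37136136-37169983, plus strand, 9 exons) had 240, 119 and 100 reads in 24h and 649 and 590 in Control. Its levels were 11.7, 5.04 and 6.49 CPM in 24h, against 34.3 and 38.9 CPM in Control. All 24h libraries lay far below Control, with 24h replicate 1 the highest of its group. The means of 7.76 ± 3.52 CPM in 24h and 36.6 ± 3.28 CPM in Control gave a log2 fold change of -2.24 ± 0.33, a 4.71-fold fall, with an adjusted p of 0.0039 in edgeR's test. Without 24h replicate 1 the change was -2.68.

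Its duplicate csf1a (ENSDARG00000075343, chromosome 11 at 23012133-23044168, plus strand, 7 exons) did not pass the test. The levels were 25.0, 31.4 and 34.7 CPM in 24h and 28.4 and 28.5 CPM in Control, with the Control values inside the range of 24h. The log2 fold change was 0.094 ± 0.17 with an adjusted p of 0.71 in edgeR's test, and its sign turned to -0.029 on exon-exon reads and to -0.0079 without 24h replicate 3. The third ligand, il34 (ENSDARG00000091003, chromosome 18 at 18538104-18554292, minus strand, 7 exons), had 13.8, 12.5 and 12.4 CPM in 24h and 14.1 and 13.8 CPM in Control. These groups overlapped by a narrow margin, and the log2 fold change of -0.11 ± 0.15 had an adjusted p of 0.63 in edgeR's test.

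The makeup of the ligand transcripts differed accordingly between the groups. In TPM, a level per exon length, csf1a had 19.6, 27.8 and 31.5 in 24h and 24.6 and 24.9 in Control, and csf1b had 13.9, 6.38 and 7.66 in 24h and 46.1 and 52.3 in Control. Of the summed TPM of the 3 ligands, csf1a took 40.9% to 58.5% in 24h and 26.7% to 28.0% in Control. The share of csf1b was 13.0% to 29.1% in 24h and 52.6% to 56.1% in Control, and that of il34 was 27.2% to 30.4% in 24h and 17.2% to 19.4% in Control. No share overlapped between the groups. By TPM the most abundant ligand transcript was csf1a in all 3 24h libraries and csf1b in both Control libraries. The sum was 50.2 ± 3.14 TPM in 24h (SD, n = 3) and 90.5 ± 3.97 TPM in Control (SD, n = 2).

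**Figure D3:**
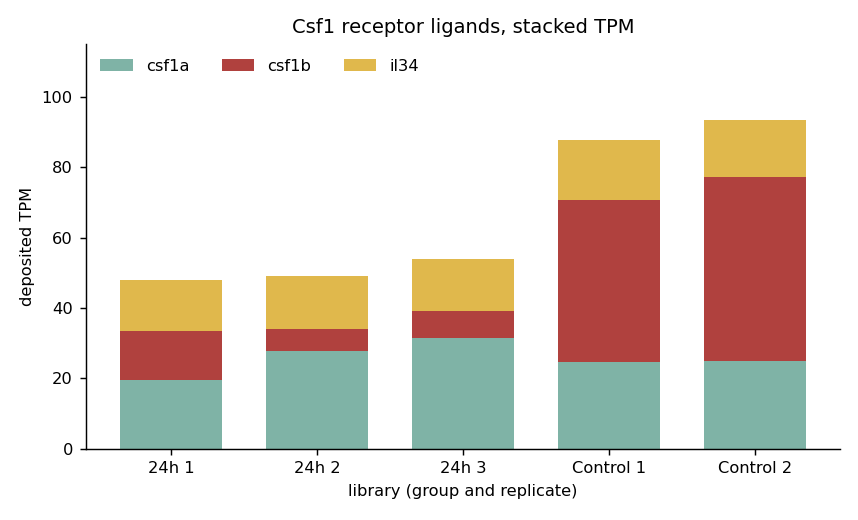
Deposited TPM of the Csf1 receptor ligands csf1a, csf1b and il34, stacked for each library, with the 24h libraries left of the Control libraries. The summed bars reach 47.8 to 53.8 TPM in 24h and 87.7 to 93.3 TPM in Control, and the csf1b segment accounts for 13.0% to 29.1% in 24h and 52.6% to 56.1% in Control.

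The receptor csf1ra (ENSDARG00000102986, chromosome 14 at 3170816-3202049, minus strand, 22 exons) had the highest mean TPM of the 8 genes in both groups. It had 970, 1369 and 846 reads in 24h and 1586 and 1558 in Control. The levels were 47.4, 58.0 and 54.9 CPM in 24h, against 83.7 and 103 CPM in Control. The groups did not overlap, but the Control libraries differed from each other by more than the 24h libraries did. The means were 53.4 ± 5.41 CPM in 24h and 93.2 ± 13.4 CPM in Control, a log2 fold change of -0.80 ± 0.15 with an adjusted p of 0.0081 in edgeR's test. Without Control replicate 2, the higher one, the change was -0.64 with an adjusted p of 0.077.

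Its duplicate csf1rb (ENSDARG00000053624, chromosome 21 at 43846478-43885949, plus strand, 23 exons) also fell on total reads. It had 57, 90 and 55 reads in 24h and 476 and 371 in Control, or 2.79, 3.81 and 3.57 CPM in 24h and 25.1 and 24.5 CPM in Control. The log2 fold change was -2.87 ± 0.19 with an adjusted p of 7.9e-05 in edgeR's test. Most of these reads lay outside its exons, however. Intron reads made up 91.6% of its reads in 24h and 94.6% in Control, against 7.22% to 7.86% over all genes of a library.

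By exon reads csf1rb was the rarest of the 8 genes. Its exon reads numbered 8, 6 and 3 in 24h and 27 and 19 in Control, over 6742 bp of exon. The exon-exon reads, which cross a splice junction, numbered 2, 1 and 1 in 24h and 8 and 4 in Control. On exon reads the log2 fold change was -2.21 ± 0.44 with an adjusted p of 0.011 in edgeR's test, and this call was lost without Control replicate 1 (adjusted p = 0.11) or Control replicate 2 (0.059). A gene model on the same strand, si:ch1073-309n14.1, overlaps the gene at 43846480-43853754 and had 0, 1 and 3 reads in 24h and 23 and 22 in Control. What transcript the intron reads come from was not tested.

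Relative to csf1ra, the ligand ratios differed in direction. The ratio of csf1a to csf1ra was 0.770, 0.793 and 0.930 in 24h and 0.497 and 0.400 in Control, a log2 difference of 0.89. The ratio of il34 to csf1ra was 0.566, 0.426 and 0.433 in 24h and 0.343 and 0.258 in Control, a log2 difference of 0.66. In both, a ligand whose change did not pass the test stands over a receptor that fell. The ratio of csf1b to csf1ra was instead lower, at 0.548, 0.183 and 0.228 in 24h and 0.931 and 0.840 in Control, a log2 difference of -1.64.

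Between the duplicates, csf1b over csf1a was 0.711, 0.231 and 0.245 in 24h, against 1.88 and 2.1 in Control, a log2 difference of -2.54 or 5.80-fold lower. Each of these 4 ratios had the smallest p the exact two-sided permutation test allows, 0.2, and an adjusted p of 0.27. Summed over the ligands and over the receptors, the ratio was 1.88, 1.40 and 1.59 in 24h and 1.75 and 1.49 in Control, with overlapping groups and a log2 difference of -0.0062 (exact permutation p = 1). Ratios to csf1rb rest on 3 to 8 exon reads in a 24h library. The differences were 2.30 for csf1a and 2.07 for il34 over csf1rb, -0.24 for csf1b over csf1rb, where the groups overlapped, and -1.41 for csf1rb over csf1ra. In all, 9 of the 12 ratios did not overlap between the groups. The ratios reuse the same 8 genes, so this count is not independent of the single genes. Of those genes 6 did not overlap in CPM, beside 56.8% of all tested genes, and no such share was computed for ratios.

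Exon and intron reads were tested apart, because intron reads come mostly from unspliced RNA and exon reads mostly from spliced RNA. On exon reads the same number of the 8 genes was called, 5 lower and 1 higher, where 25.8% of 17473 genes were called (15.8% lower and 10.1% higher). The log2 fold changes were -1.16 ± 0.20 for tnfsf11, -1.04 ± 0.20 for tnfrsf11a, 0.91 ± 0.21 for tnfrsf11b, -2.31 ± 0.38 for csf1b and -0.80 ± 0.14 for csf1ra. Each lay within 1 SE of the change in total reads. Exon reads are the larger part of the total reads of these genes, so the likeness of their changes and calls is largely built in. Beside the calls of csf1rb above, the exon calls of tnfsf11 and tnfrsf11a were lost without Control replicate 1 (adjusted p = 0.061 for both), that of tnfrsf11b without either Control library (0.070 and 0.12) and that of csf1ra without Control replicate 2 (0.066), all in edgeR's test.

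On intron reads 7 of the 8 genes could be tested, tnfrsf11b having 5, 3 and 2 such reads in 24h and 2 and 2 in Control. The genes tnfsf11, csf1b and csf1rb fell, where 6.93% of 13277 genes were called (4.77% lower and 2.16% higher). For csf1rb the intron reads numbered 49, 84 and 52 in 24h and 449 and 352 in Control, a log2 fold change of -2.95 ± 0.25 with an adjusted p of 0.00031 in edgeR's test. For csf1b they numbered 30, 23 and 26 in 24h and 81 and 75 in Control, a change of -1.79 ± 0.32 with an adjusted p of 0.010. For tnfsf11 they numbered 13, 26 and 16 in 24h and 54 and 33 in Control, a change of -1.47 ± 0.34 with an adjusted p of 0.031. The call of tnfsf11 rested on these few reads and was lost without any one of 24h replicates 2 and 3 and both Control libraries (adjusted p = 0.059 to 0.31), and that of csf1b was lost without either Control library (0.093 and 0.12).

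In the receptors tnfrsf11a and csf1ra the intron reads gave estimates close to those of the exon reads without passing the test. They were -0.97 ± 0.28 for tnfrsf11a (adjusted p = 0.072 in edgeR's test, and 0.046 without a low-count filter or without 24h replicate 1) and -0.79 ± 0.32 for csf1ra (adjusted p = 0.19). The difference between intron and exon change was then tested directly, with each library as a block. None of the 7 genes was called, none had an unadjusted p under 0.05, and the smallest adjusted p was 0.52, for csf1b, whose intron change was less negative by 0.64 ± 0.36. Across all genes 1.17% of 12221 were called in that test (0.925% with a higher and 0.245% with a lower intron change), and no difference was detectable at this depth in the 7 genes.

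**Figure D4:**
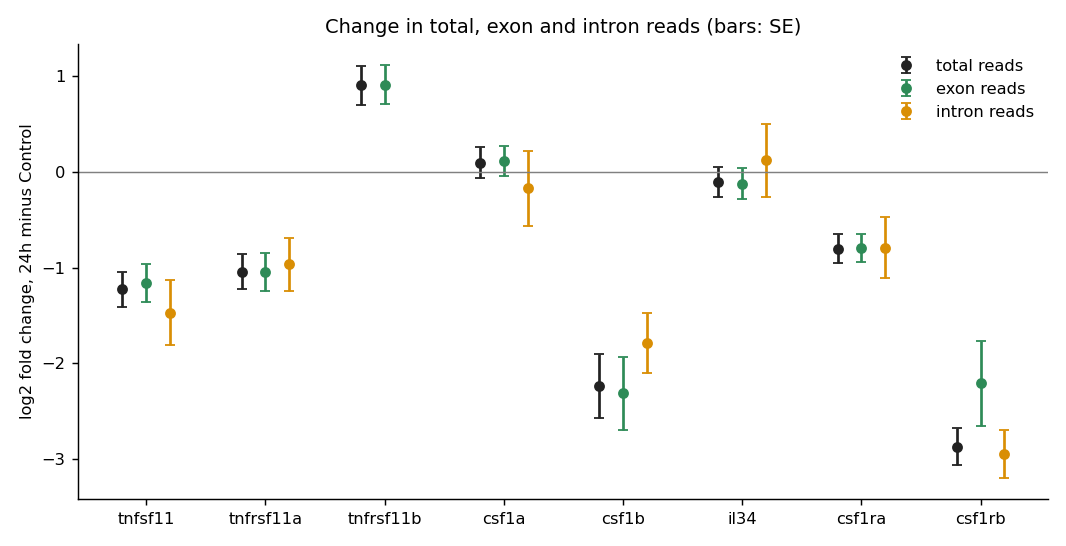
Log2 fold change, 24h minus Control, of total, exon and intron reads for each of the 8 genes, with approximate standard errors as bars (edgeR, 3 and 2 libraries). Intron reads of tnfrsf11b were too few to test; in the other genes the exon and intron estimates lie near each other, with the widest gaps in csf1rb and csf1b.

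The order of the 8 genes by TPM differed between the groups. In 24h, csf1ra stood highest at 31.4 ± 5.26 TPM, followed by csf1a at 26.3 ± 6.10, tnfrsf11a at 19.5 ± 2.80, tnfrsf11b at 16.8 ± 2.00 and il34 at 14.6 ± 0.277. Each neighbouring pair among these 5 overlapped between libraries, but not every more distant pair did. All 24h libraries had more csf1ra, at 25.4 TPM or above, than any had of tnfrsf11a (at most 22.7), tnfrsf11b (at most 17.9) or il34 (at most 14.9). The lowest csf1a value, 19.6 TPM, lay above all values of tnfrsf11b and il34, and the lowest tnfrsf11a value, 17.8 TPM, above all values of il34. Below them lay csf1b at 9.31 ± 4.02, tnfsf11 at 5.09 ± 0.173 and csf1rb at 0.0889 ± 0.0237 TPM, without overlap between neighbours. In Control the order was csf1ra at 55.9 ± 9.05 and csf1b at 49.2 ± 4.40, which overlapped, then tnfrsf11a at 41.9 ± 1.23, csf1a at 24.7 ± 0.229, il34 at 16.5 ± 0.660, tnfsf11 at 11.7 ± 0.420, tnfrsf11b at 9.22 ± 1.13 and csf1rb at 0.444 ± 0.0398 TPM, with no other overlap. The decoy thus stood above the ligand in TPM in 24h and below it in Control. By its place among all tested genes, csf1b had a higher TPM than 55.8% of them in 24h and 86.3% in Control, while csf1a stood above 76.4% in 24h and 75.0% in Control.

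Downstream of RANK, 7 of 26 tested genes of the signalling list were called, 1 higher and 6 lower, which is 26.9% beside 24.3% of all genes. The list median was -0.24. The NF-kB subunits rel and relb fell by 1.19 ± 0.21 and 0.88 ± 0.18 on the log2 scale (adjusted p = 0.0071 and 0.013 in edgeR's test). So did the genes of the NF-kB inhibitor IkBa, nfkbiaa at -0.90 ± 0.22 and nfkbiab at -0.84 ± 0.21 (adjusted p = 0.027 and 0.025). The adaptor gene tab2 rose by 0.50 ± 0.13 (adjusted p = 0.029). The change of traf6, the adaptor that RANK binds, was 0.16 ± 0.18 (adjusted p = 0.56). For nfatc1, the transcription factor of osteoclast differentiation, levels were 105, 63.1 and 89.3 CPM in 24h and 25.0 and 56.0 CPM in Control. These did not overlap, with a log2 fold change of 1.08 ± 0.37 and an adjusted p of 0.081 in edgeR's test. The list had 0 calls without Control replicate 1 and 2 without 24h replicate 1.

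Downstream of Csf1r, 4 of 24 tested genes rose and 6 fell, with a median of -0.21, and 3 were called in all without Control replicate 1. The genes that fell with the smallest p were mitfa, a transcription factor known for melanocytes in zebrafish, at -3.08 ± 0.36 (adjusted p = 0.0011 in edgeR's test), ptpn6, the phosphatase Shp1, at -1.46 ± 0.22 (0.0037), and the kinase syk at -0.97 ± 0.17 (0.0075), of whose reads 35.8% were unique. The ubiquitin ligase cblb rose by 1.30 ± 0.22 (adjusted p = 0.0061). Of the tested genes of this list 41.7% were called, beside 24.3% of all genes tested. Among related receptor tyrosine kinases and their ligands, 5 of 10 fell and 0 rose, which is 50.0% called, with a median of -1.16. They include kita at -2.01 ± 0.28 (adjusted p = 0.0025) and its ligand kitlga at -1.23 ± 0.18 (0.0028), and the Pdgf ligands pdgfbb at -3.74 ± 0.33 (0.00030) and pdgfab at -1.69 ± 0.24 (0.0026).

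Other reported binding partners were called in 4 of 9 genes, 1 higher and 3 lower (2 calls without Control replicate 2). These calls make 44.4% of the tested partners, beside 24.3% of all genes tested. In mammals IL-34 also binds the receptor phosphatase PTPRZ1. Of the zebrafish genes of PTPRZ1, ptprz1a had 225, 200 and 213 CPM in 24h, against 31.2 and 33.2 CPM in Control. Its log2 fold change was 2.72 ± 0.13 with an adjusted p of 2.8e-05 in edgeR's test. The duplicate ptprz1b had means of 2.38 CPM in 24h and 2.66 CPM in Control. Its change of -0.17 ± 0.34 did not pass the test (adjusted p = 0.74). In mammals osteoprotegerin also binds TRAIL and von Willebrand factor. Of the genes named for TRAIL, tnfsf10 had 2.79, 4.53 and 2.60 CPM in 24h and 8.55 and 10.6 CPM in Control. Its log2 fold change was -1.52 ± 0.29 with an adjusted p of 0.0097 in edgeR's test. The related tnfsf10l was more abundant, with means of 53.8 CPM in 24h and 53.4 CPM in Control. Its change was 0.0090 ± 0.27 (adjusted p = 0.98). Neither tnfsf10l3, at 0.29 ± 0.37 (0.60), nor tnfsf10l4, at 0.035 ± 0.48 (0.96), passed the test. The gene vwf, which is also a marker of vessels and overlaps a gene model on the opposite strand, had 5 reads in all in 24h and 289 in Control.

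Of 16 other Tnf receptors 6 rose and 1 fell (3 calls without Control replicate 1 and 4 without Control replicate 2). The share called was 43.8%, beside 24.3% of all genes tested. The median was -0.22, opposite in sign to most calls. The receptor tnfrsf21 had 143, 140 and 156 CPM in 24h and 53.7 and 71.1 CPM in Control, a log2 fold change of 1.23 ± 0.16 with an adjusted p of 0.0016 in edgeR's test. Also higher was tnfrsf9a, whose interval overlaps mxra8b on the same strand, at 1.83 ± 0.29 (adjusted p = 0.0055), while tnfrsf9b fell by 2.07 ± 0.41 (0.011). Of 11 other Tnf ligands 0 rose and 2 fell (1 call without Control replicate 2), tnfsf10 and tnfsf12, which had a log2 fold change of -2.51 ± 0.35 (adjusted p = 0.0025). Among these ligands 18.2% were called, below the 24.3% of all genes tested. The gene tnfa had too few reads to test, 12 in 24h and 17 in Control.

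Genes reported in mammals to act on RANKL or osteoprotegerin were called in 11 of 25 cases, 6 higher and 5 lower, with a median of 0.31 (6 calls without Control replicate 1 and 7 without Control replicate 2). With all libraries 44.0% of these genes were called, beside 24.3% of all genes tested. The cytokine gene il11a had 46.9, 57.7 and 57.6 CPM in 24h and 6.97 and 8.11 CPM in Control, a log2 fold change of 2.84 ± 0.17 (adjusted p = 5.5e-05 in edgeR's test). Also higher were tgfb1a at 0.87 ± 0.14 (0.0051) and the Wnt5a receptor gene ror2 at 1.32 ± 0.15 (0.00087). Lower were sema3aa, whose mammalian counterpart restrains osteoclasts, at -3.69 ± 0.23 (6.5e-05), the parathyroid hormone receptor gene pth1ra at -2.35 ± 0.29 (0.0014), and wnt16 at -4.80 ± 0.35 (0.00012), which shares its interval with stab2 on the same strand.

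**Figure D5:**
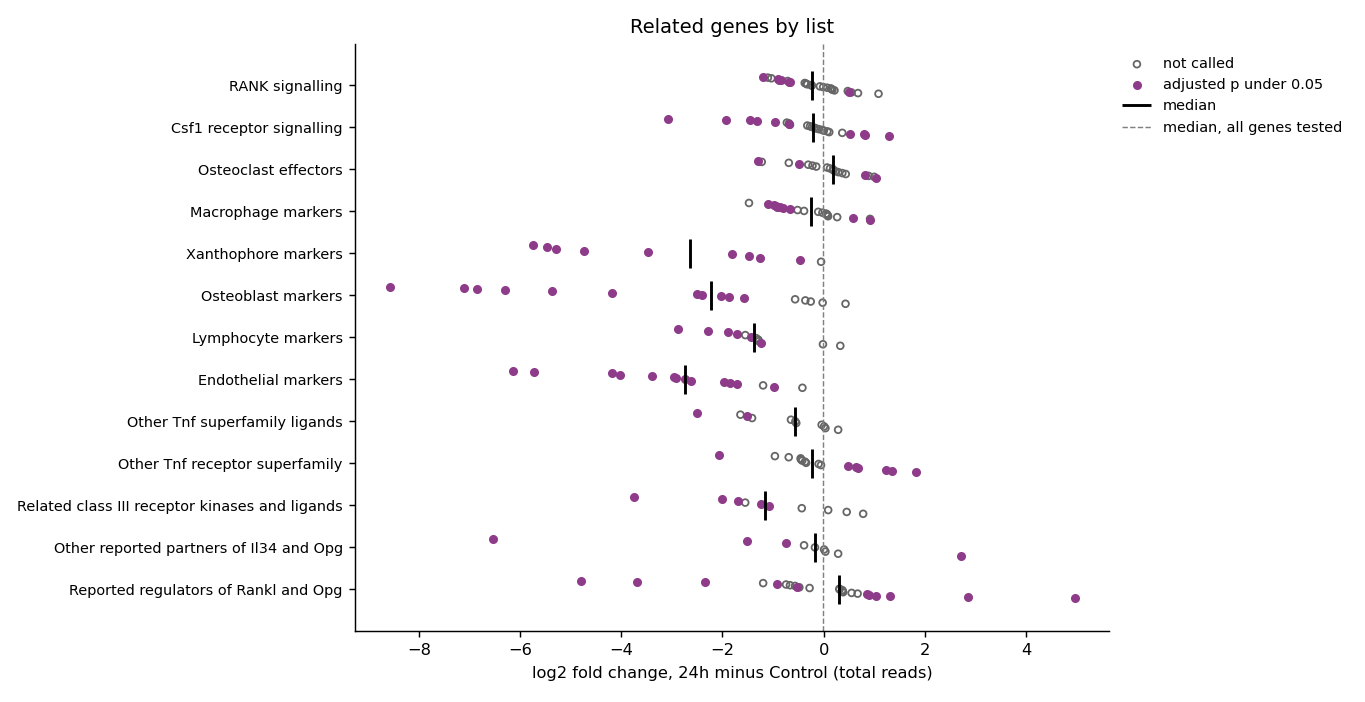
Log2 fold change of total reads, 24h minus Control, for the tested genes of each list of related genes and cell type markers. Filled points have an adjusted p under 0.05 in edgeR's test, open points do not, thick bars are list medians and the dashed line is the median of all genes tested; the xanthophore, osteoblast and endothelial medians lie at -2.64, -2.22 and -2.74.

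Markers of the cells that carry or make these ligands and receptors were read from the same libraries, and their part in the results above was not tested. Of 20 macrophage markers 7 fell, 2 rose and 11 did not pass the test, which makes 45.0% called (3 calls in all without either Control library). Their summed levels were 540 to 832 CPM in 24h and 815 to 902 CPM in Control, and these overlapped. Among those that fell were mpeg1.2, at -1.11 ± 0.17 on the log2 scale (adjusted p = 0.0039 in edgeR's test), the scavenger receptor gene marco at -0.95 ± 0.20 (0.013) and the complement gene c1qa at -0.93 ± 0.19 (0.012). Those that fell also include lcp1 at -0.81 ± 0.19, coro1a at -0.86 ± 0.23 and ptprc at -0.98 ± 0.22. Their adjusted p in edgeR's test were 0.020, 0.033 and 0.019, and they are not specific to macrophages among leukocytes. The cathepsin gene ctss2.1 rose by 0.92 ± 0.16 (0.0061). The macrophage gene mpeg1.1 did not pass the test and had 85.2, 73.2 and 55.1 CPM in 24h and 97.0 and 89.1 CPM in Control (log2 fold change -0.39 ± 0.19, adjusted p = 0.17 in edgeR's test). Of 19 osteoclast effectors 2 rose, 2 fell and 15 did not pass the test (0 calls without either Control library and 1 without 24h replicate 2). That is 21.1% called, near the 24.3% over all genes tested. Their sums, 2087 to 2555 CPM in 24h and 1847 to 2196 CPM in Control, overlapped. Much of each sum came from ctsk, ca2 and itgav. Their means were 663, 528 and 488 CPM in 24h and 608, 285 and 603 CPM in Control. The integrin gene itgb3b rose by 1.03 ± 0.21 (adjusted p = 0.012 in edgeR's test) and the kinase gene src by 0.82 ± 0.23 (0.040). The proton pump subunit gene tcirg1a fell, at -1.30 ± 0.31 (0.023), as did the small GTPase gene rac2, at -0.49 ± 0.13 (0.036). Mean levels of tcirg1a were low, 1.33 CPM in 24h and 3.24 CPM in Control. Its duplicate tcirg1b had means of 92.2 CPM in 24h and 71.4 CPM in Control. The change of tcirg1b, 0.37 ± 0.13, did not pass the test (adjusted p = 0.072 in edgeR's test). The TRAP gene acp5a had 119, 127 and 54.9 CPM in 24h and 43.1 and 57.2 CPM in Control, with overlapping groups and a log2 fold change of 1.00 ± 0.37 (adjusted p = 0.095). For ctsk, the collagen-degrading protease of osteoclasts, the change was 0.13 ± 0.16 (adjusted p = 0.59), and for the second TRAP gene acp5b it was -0.22 ± 0.51 (0.78).

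Xanthophores are the other known site of csf1ra. Of 10 tested xanthophore markers 9 fell and 0 rose, which is 90.0% called beside 24.3% of all genes tested. The median was -2.64, and the sums were 144 to 163 CPM in 24h and 237 to 254 CPM in Control. Much of each sum came from mycbp2, the marker that did not pass the test, with 103, 107 and 119 CPM in 24h and 106 and 121 CPM in Control. The 9 that fell include tyrp1a at -4.73 ± 0.27 and gpr143 at -1.48 ± 0.39 (adjusted p = 4.4e-05 and 0.032 in edgeR's test). These 2 genes are better known from melanocytes than from xanthophores, so the count of 9 is not one of xanthophore genes alone. The pteridine synthesis gene gch2 had 20 reads in all in 24h and 510 in Control, a log2 fold change of -5.47 ± 0.29 (adjusted p = 3.7e-05 in edgeR's test). Osteoblasts are a known source of RANKL and Csf1. Of 16 osteoblast markers 11 fell and 0 rose, or 68.8% called, with sums of 7314 to 9061 CPM in 24h and 46121 to 46329 CPM in Control. Most of each Control sum came from col1a1a, col10a1a, col1a1b and sparc, with means of 19849, 10695, 9305 and 5442 CPM. In 24h most came from col1a1a, col1a1b and sparc, with means of 3517, 2264 and 1839 CPM. The genes col1a1a, col1a1b and sparc are not specific to osteoblasts, so the sums do not measure osteoblasts alone. Of the reads of col1a1a 58.5% were unique. The osteoblast transcription factor gene sp7 had 9.49, 12.6 and 11.2 CPM in 24h and 60.2 and 57.6 CPM in Control, a log2 fold change of -2.40 ± 0.15.

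Lymphocytes, which can also make RANKL, gave summed marker levels of 65.2 to 89.1 CPM in 24h and 108 to 134 CPM in Control, with 6 of 12 tested markers lower and 0 higher (2 calls without Control replicate 1, 3 without Control replicate 2 or 24h replicate 1). Among them cd4-1 fell by 1.25 ± 0.27 on the log2 scale (adjusted p = 0.017 in edgeR's test), and rag1 was at 0 in all libraries. Much of each sum came from tcf7, at 28.3, 45.2 and 43.6 CPM in 24h and 34.7 and 27.3 CPM in Control. Its change of 0.33 ± 0.23 did not pass the test (adjusted p = 0.33 in edgeR's test), and 54.5% of its reads lay in introns. Endothelial markers summed to 41.9 to 44.9 CPM in 24h and 240 to 248 CPM in Control, and 13 of 15 fell while 0 rose. The share called was 86.7% of these and 50.0% of the lymphocyte markers, beside 24.3% of all genes tested.

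The genes nearest to each of the 8 in their profile over the 5 libraries were found among 12558 genes, by the root mean square (RMS) difference of centred log2 CPM. For csf1b the nearest was tgfb3, a Tgf-beta ligand, at 0.15, and it was the only gene within 0.2. This distance also counts the spread of csf1b among the 24h libraries, 5.04 to 11.7 CPM. For csf1rb, whose reads were mostly intron reads, the nearest was mef2cb at 0.042, with 41 genes within 0.2. For tnfrsf11a it was the leukotriene receptor gene ltb4r2b at 0.035, followed by ltb4r at 0.081, with 96 genes within 0.2. The nearest to tnfrsf11b was nfkbiz, an IkB-family gene, at 0.029, with 279 genes within 0.2. For tnfsf11 the nearest was gli3, a transcription factor of Hedgehog signalling, at 0.028 with 283 within 0.2, and for csf1ra it was aox6 at 0.036 with 470. The profiles of csf1a and il34, which did not pass the test, had 2819 and 3489 genes within 0.2. These distances are given as a description over 5 libraries in 2 groups.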

How the data were processed

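Messenger RNA of 5 caudal fin samples was sequenced after phenolic extraction and a stranded library kit, per the labels' protocols. Per the file headers, each deposited table holds counts of reads per gene (total, unique, in exons, in introns and across exon-exon junctions) for 31540 genes, with TPM and RPKM values made by the authors. The build was GRCz10, per the submitters' processing notes. The aligner and the counter, with its strand setting, remain not given in the sources used here. The deposited TPM equalled exon reads per exon length, scaled to a common sum, in every gene above 1 TPM within a relative difference of 1e-06. RPKM were not used.

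Total reads were tested with edgeR 4.0.16 (limma 3.58.1, R 4.3.3): a quasi-likelihood F test, TMM scaling, filterByExpr, a robust fit, and Benjamini-Hochberg adjustment over all tested genes at 0.05. Exon reads and intron reads had the same test, and their difference was tested with library as a block. A fold change is the log2 value of 24h less that of Control. Its SE was approximated by dividing its size by the square root of F. Ratios used exon reads plus 0.5 per kilobase and an exact permutation test. The code was tested on simulated data.

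The 8 genes and the 13 lists were chosen with earlier results of these data known. Lists are described by counts and medians, with no set test. Of 240 listed genes, 227 were found in the tables. Named beside the 8 genes are, from each list, up to 4 genes of lowest p, some markers set by name, overlapping or adjacent gene models and nearest profiles. The genes tab2, tgfb1a, pth1ra, tnfa, rag1 and mycbp2 were named after their values were seen. So were tcirg1b, ptprz1b, tnfsf10l, tnfsf10l3, tnfsf10l4, gpr143, tcf7, col1a1a, col1a1b, col10a1a, sparc, ca2 and itgav. The same holds for lcp1, coro1a and ptprc. Alternatives were DESeq2 1.42.0, RLE scaling, other filters, unique or exon-exon reads, limma on log2 TPM, other pseudocounts and leaving out each library in turn. Exon-exon reads, and unique exon reads for ratios, were added after seeing the data.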

Additional observations from a re-analysis of the deposited data

How the results depend on the processing

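No paired analysis was possible because the labels give no replicate numbers; those used here follow accession order. Leaving out single libraries gave 1790 to 4693 calls on total reads (1790 without Control replicate 1 and 2208 without Control replicate 2), 1808 to 4658 on exon reads, 137 to 1352 on intron reads and 13 to 298 for the difference of intron and exon reads. It gave 0 to 7 calls in the RANK list, 3 to 9 in the Csf1 receptor list, 0 to 6 for osteoclast effectors, 3 to 10 for macrophage and 2 to 8 for lymphocyte markers. For other Tnf ligands it gave 1 to 2 calls, for other Tnf receptors 3 to 8, for partners of Il34 and Opg 2 to 4 and for regulators 6 to 11. Without a low-count filter, 1808 genes were called on intron reads, against 920, and 459 for the difference, against 143. On total reads DESeq2 called 5103 genes and limma 3758 (TPM + 0.1) or 3983 (TPM + 1), against 4618. The calls of tnfsf11, csf1b and csf1rb on total reads held without any single library. Across alternatives the log2 fold change was -1.29 to -0.95 for tnfsf11, -1.25 to -0.95 for tnfrsf11a, 0.75 to 1.03 for tnfrsf11b, -2.68 to -1.99 for csf1b and -0.94 to -0.64 for csf1ra. It was -2.97 to -0.41 for csf1rb, where -0.41 came from limma on log2(TPM + 1) with TPM under 1 in all libraries; exon-exon reads were too few for csf1rb.

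Signs turned in small differences, and the cause was not tested. For csf1a the change was -0.029 on exon-exon reads, and without single libraries it ranged between -0.0079 and 0.21 on total reads and between -0.38 and 0.078 on intron reads; for il34 it ranged between -0.19 and 0.46 on intron reads. The intron minus exon difference of csf1ra was -0.012 with RLE scaling, -0.022 without a filter, and between -0.27 and 0.27 without single libraries; there it ranged between -0.078 and 0.67 for il34 and between -0.10 and 0.44 for tnfrsf11a. With total reads per kilobase, csf1b over csf1rb differed by 0.55 and the summed ligands over receptors by 0.11. Without single libraries the summed ratio ranged between -0.13 and 0.11 and tnfsf11 over tnfrsf11a between -0.17 and 0.053. Precision is limited by 2 Control libraries and, for csf1rb exons and tnfrsf11b introns, by few reads.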
